A study of Mus musculus with 9 samples.

Results

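The comparison described here sets single cell clone 2 of the mouse acute myeloid leukaemia line AML246 against single cell clone 4 of the same line. Its members are the 6 samples of these clones, of 9 in the series, chosen by the clone number in their titles, and each sample is 1 RNA-seq library. Both clones descend from p53-/- shPU.1 cells on a C57BL/6 background, so the loss of p53 and a short hairpin RNA against PU.1 were shared by all 6 libraries. The cells were cultured with IL3. Each clone had 1 untreated library, sorted as GFPhigh, 1 library after 14 days of Dox, sorted as GFPoff, and 1 washed library, sorted as GFPhigh, from cells that spent 14 days in Dox and then 14 days without it. The GFPhigh and GFPoff sorts mark cells in which the hairpin is made or is switched off. The remaining 3 libraries, from clone 1, stand beside the results for context and entered no main test.

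The limits of the model come with the design. Each clone is the progeny of 1 cell, and each clone had 1 library per culture condition, so the 3 libraries of a clone are 3 conditions and not repeats of one. The labels do not say which promoter drives the hairpin, nor whether the cultures were grown side by side. A difference between the clones therefore cannot be told apart from a difference between their cultures that lasted through all 3 conditions. RNA was taken from bulk cell pellets, in which more cells of a type and more RNA per cell cannot be told apart.

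As background, leukaemia lines are made of cells that keep dividing and diverging, so that subclones of 1 line can carry different mutations, chromatin states and growth rates. PU.1, encoded by Spi1, is a transcription factor that drives myeloid differentiation, and p53 is the tumour suppressor that halts or kills damaged cells. Cells short of oxygen keep the factor HIF-1 from being degraded, and HIF-1 turns on genes of glycolysis, glucose uptake, lactate export and mitophagy. Growing cells spend much of their transcription on ribosomes, whose RNA is processed in the nucleolus by large complexes such as the small subunit processome.

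The 6 libraries held 8003610 to 9187076 counts, and 12143 of the 27179 gene entries passed the filter on low counts. Spi1 (chromosome 2, 91082374 to 91115759 on GRCm38), the gene the hairpin is directed against, stood at 46.6 CPM (each library's counts scaled to a common total with the trimmed mean of M values) in untreated, 191 in Dox and 40.5 in washed clone 2. In clone 4 it stood at 23.7, 156 and 23.9 CPM. Spi1 was thus lower in clone 4 in each condition (log2 fold change -0.65 ± 0.14 SE, clone 4 minus clone 2 throughout, adjusted p = 0.0123 by edgeR's quasi-likelihood test). That call was lost without the untreated libraries (log2 fold change -0.53, adjusted p = 0.102), without the washed ones (-0.60, adjusted p = 0.0888) and with a correction for transcript length and GC content (-0.38, adjusted p = 0.0996). Trp53, the gene for p53, was counted in both clones, at 79.3, 43.0 and 76.4 CPM in clone 2 and 61.1, 39.4 and 60.7 in clone 4 (adjusted p = 0.0993), and was called only without the Dox pair (log2 fold change -0.35, adjusted p = 0.00761). Lcp1, a leukocyte actin-bundling protein, ran from 807 to 1104 CPM over the 6 libraries, while Cd3e, Cd4, Cdh5 and Col1a2, markers of T cells, endothelium and stroma, had 0 counts. Other markers of these cell types were counted. Cd3g ran from 20.2 to 210 CPM. The 4 tested stroma, endothelium and epithelium markers summed to 930 to 1037 CPM, nearly all of it Pecam1 and Pdgfrb. Ptprc, the pan-leukocyte marker CD45, ran from only 0.489 to 1.64 CPM in the GFPhigh libraries and stood at 45.0 and 28.0 CPM in Dox. Ddx3y, Kdm5d and Uty of the Y chromosome had 0 counts in either clone.

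Between the clones, 3067 of 12143 genes (25.3%) were called, at an adjusted p under 0.05 in edgeR's quasi-likelihood test with culture condition as a block. Of these, 1528 (12.6%) were higher in clone 4 and 1539 (12.7%) higher in clone 2. Large differences leaned one way: 414 called genes were at least 2-fold higher in clone 2 against 232 in clone 4, and 68 against 6 at least 4-fold. No gene was below 0.5 CPM in all libraries of 1 clone and at or above 5 CPM in all of the other, a count of 0 in each direction with no test behind it. With scaling by library size alone, 2600 genes were called, of which 65.8% were higher in clone 4 against 49.8% with the main scaling, and the median over all tested genes moved from a log2 fold change of 0.0017 to 0.104.

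How firmly these calls stand depends on what is taken as error. With clone alone in the model, and the conditions counted as spread, edgeR called 0 of 11757 genes (2204 at an unadjusted p under 0.05), limma voom 0 and DESeq2 972. With clone 1 added to the blocked fit, edgeR called 0 of 12337 genes (2833 at an unadjusted p under 0.05), limma voom 0 and DESeq2 742; without the untreated library of clone 1 it called 765. Each of the 3067 genes kept its direction in the fit with 9 libraries, which was largely set by the design and is no independent check. Clone 1 had its own term there, so the clone difference still came almost wholly from the same 6 libraries. Without the untreated pair 947 genes were called, without the washed pair 804 and without the Dox pair 4826. Each adjusted p below comes from the fit to the 6 libraries with culture condition as a block. Exceptions are those given for a left-out pair, for another named fit or for the interaction of clone and hairpin state.

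The 3 culture conditions give 3 pairs of libraries that share no library with one another. Among the 3067 called genes 3054 differed in 1 direction in all 3 pairs, which the test favours by its construction. Over all tested genes that share was 58.8%, and among genes not called 45.0%. A choice made in 1 pair can be read in the others: 91 genes were at least 4-fold higher in clone 2 in the untreated pair, and of these 59 were at least 2-fold higher in clone 2 in the Dox pair, 71 in the washed pair and 50 in both. In the other direction, 23 genes were at least 4-fold higher in clone 4 in the untreated pair, and 6 of them were at least 2-fold higher in the Dox pair, 11 in the washed pair and 5 in both. Across genes, the clone difference in the untreated pair had a Pearson r of 0.698 with that in the washed pair and 0.503 with that in the Dox pair. Of the sum of squares over all genes and the 6 libraries, 67.0% lay between conditions, 23.5% between clones and 9.56% in the remainder.

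**Figure D1:**
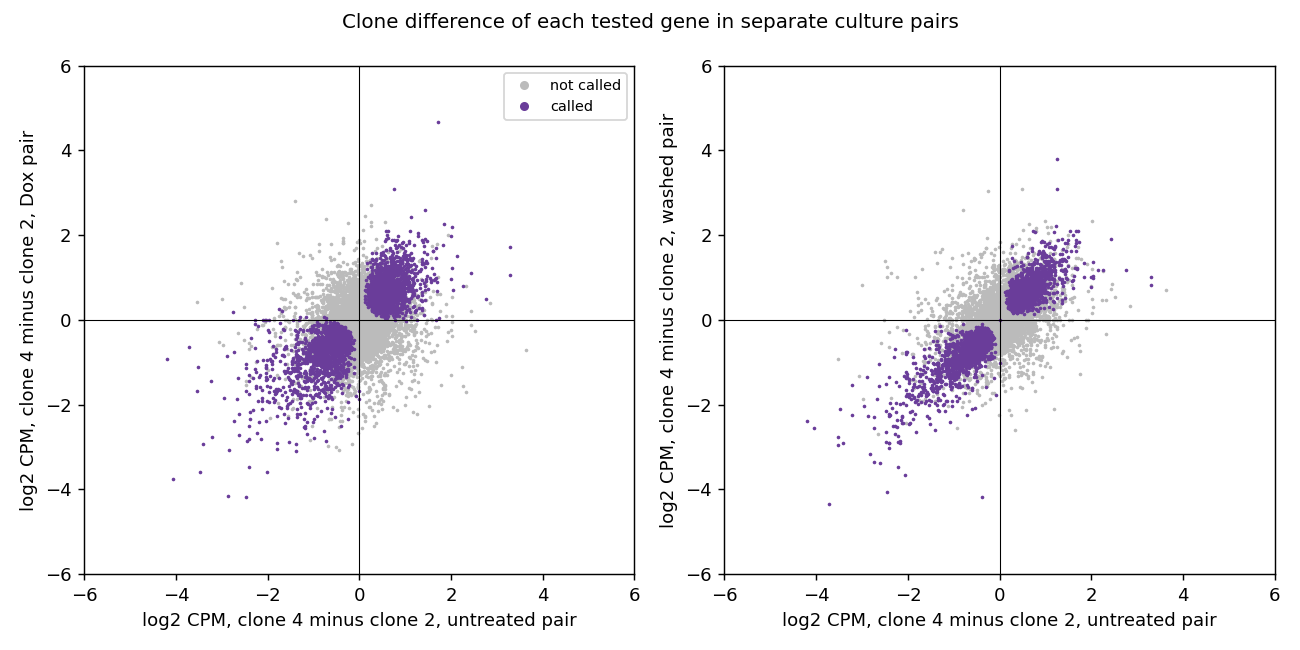
Each point is 1 of the 12143 tested genes, with its log2 difference (clone 4 minus clone 2) in the untreated pair on the x axis and in the Dox pair (left) or the washed pair (right) on the y axis. Called genes, in purple, lie mostly in the lower left and upper right, and the cloud is tighter in the right panel (r of 0.698 against 0.503).

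Glycolysis and the response to low oxygen made up the list with the largest share of called genes. Of its 38 tested members, 32 were higher in clone 2 and 1, Pfkfb3, higher in clone 4, against 12.7% and 12.6% of all tested genes, and the list's median log2 fold change was -1.21 against 0.0017 over all. The smallest p of the whole table belonged to Bnip3 (chromosome 7, 138890836 to 138909506), a receptor that marks mitochondria for removal by autophagy. Bnip3 stood at 592, 226 and 663 CPM in untreated, Dox and washed clone 2 and at 82.9, 26.9 and 73.5 CPM in clone 4. Its lowest clone 2 library was above its highest clone 4 library, and it was 8.14-fold higher in clone 2 (log2 fold change -3.02 ± 0.12 SE, adjusted p = 1.04e-05).

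Pdk1, the kinase that holds pyruvate back from the mitochondrial dehydrogenase, had 210, 111 and 236 CPM in clone 2 and 42.0, 25.4 and 41.3 CPM in clone 4 (log2 fold change -2.32 ± 0.12 SE, adjusted p = 5.21e-05). Pfkl, the liver-type phosphofructokinase of glycolysis, had 813, 462 and 879 CPM against 183, 66.2 and 172 CPM (5.40-fold, adjusted p = 0.000108). P4ha1, a collagen prolyl hydroxylase subunit, had 465, 296 and 520 CPM against 155, 69.7 and 153 CPM (log2 fold change -1.81 ± 0.12 SE, adjusted p = 0.000113). The 2 clones did not overlap in any of these genes, and both had their lowest level in Dox. Outside that list, Slc16a3, which exports lactate, was also among the 8 smallest p-values, at 682, 482 and 677 CPM in clone 2 and 225, 129 and 195 CPM in clone 4 (adjusted p = 0.000108). Adm2, a peptide of the adrenomedullin family, stood at 96.5, 59.7 and 136 CPM against 18, 5.14 and 17.9 CPM, and Gys1, the muscle form of glycogen synthase, at 235, 182 and 231 CPM against 42.2, 56.8 and 36.7 CPM (adjusted p = 0.000113 and 0.000207).

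The promoters of the 4 list members of smallest p show what sequence these genes start from. The RefSeq promoter table for GRCm38.p6 gave a window from 250 bases before to 50 after the start for 35 of the 38 members, and 28 of the 35 (80%) held ACGTG or GCGTG on either strand, the core of the element that HIF-1 binds. The same letters were in 63.7% of the 9458 windows of tested genes, in 43.8% of all 32851 windows of that table, and in 79.5% of the 78 windows of ribosome biogenesis genes, which went the other way. The 250 bases before the start of each are printed here, 5′ to 3′, with those letters in capitals (CACGC and CACGT are the same motif on the other strand). On GRCm38.p6 the stretch of Bnip3 is chr7:138909507-138909756 on the minus strand, Pdk1 at chr2:71872974-71873223 on the plus strand, Pfkl at chr10:78009808-78010057 on the minus strand and P4ha1 at chr10:59323046-59323295 on the plus strand.
Bnip3: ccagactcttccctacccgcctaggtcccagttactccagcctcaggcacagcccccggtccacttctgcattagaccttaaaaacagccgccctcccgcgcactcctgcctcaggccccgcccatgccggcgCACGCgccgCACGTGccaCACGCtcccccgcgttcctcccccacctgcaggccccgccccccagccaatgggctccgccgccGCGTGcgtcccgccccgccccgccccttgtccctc
Pdk1: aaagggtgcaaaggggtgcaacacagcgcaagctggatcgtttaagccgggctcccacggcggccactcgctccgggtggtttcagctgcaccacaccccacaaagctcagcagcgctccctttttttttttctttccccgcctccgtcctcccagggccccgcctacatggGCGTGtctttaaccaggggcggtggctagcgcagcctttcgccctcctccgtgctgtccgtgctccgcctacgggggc
Pfkl: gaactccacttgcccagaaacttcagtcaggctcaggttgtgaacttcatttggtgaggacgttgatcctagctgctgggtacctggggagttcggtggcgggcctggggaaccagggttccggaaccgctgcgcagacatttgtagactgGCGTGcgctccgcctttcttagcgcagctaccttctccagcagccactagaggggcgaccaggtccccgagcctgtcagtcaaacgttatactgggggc
P4ha1: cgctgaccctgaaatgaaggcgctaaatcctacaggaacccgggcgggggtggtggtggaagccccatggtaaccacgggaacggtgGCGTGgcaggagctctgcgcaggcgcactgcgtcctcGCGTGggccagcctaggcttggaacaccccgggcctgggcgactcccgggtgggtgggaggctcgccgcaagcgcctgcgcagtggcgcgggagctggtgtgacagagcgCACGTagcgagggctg
The Bnip3 stretch held 5 such matches, P4ha1 3, and Pdk1 and Pfkl 1 each. A match is a description of the letters in the window and was not tied to binding of any factor.

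Clone 1 placed these genes on both sides. Untreated clone 1 had 479 CPM of Bnip3, near the clone 2 level, while its Dox and washed libraries had 30.7 and 26.8 CPM, near clone 4. Pdk1 did the same at 189, 20.8 and 33.3 CPM. Of the 33 called list members, 28 were nearer to clone 2 in untreated clone 1 and nearer to clone 4 in both other clone 1 libraries. The pattern was not limited to this list. It held for 174 of the 408 called genes of 1 direction at least 2-fold higher in clone 2. Over all called genes of at least 2-fold and 1 direction, the range over the clone 1 libraries exceeded the difference between clones 2 and 4 for 409 of 638 (64.1%). That range spans the 3 conditions of clone 1, Dox among them, whereas the clone difference is taken within conditions, so the 2 measures are unlike. In clones 2 and 4 the oxygen list moved little between untreated and washed cells. Its mean log2 CPM was 8.05 and 8.15 in clone 2 and 6.83 and 6.84 in clone 4, against 7.81 and 5.65 in clone 1. For the oxygen list a clone property and a culture property cannot be told apart.

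**Figure D2:**
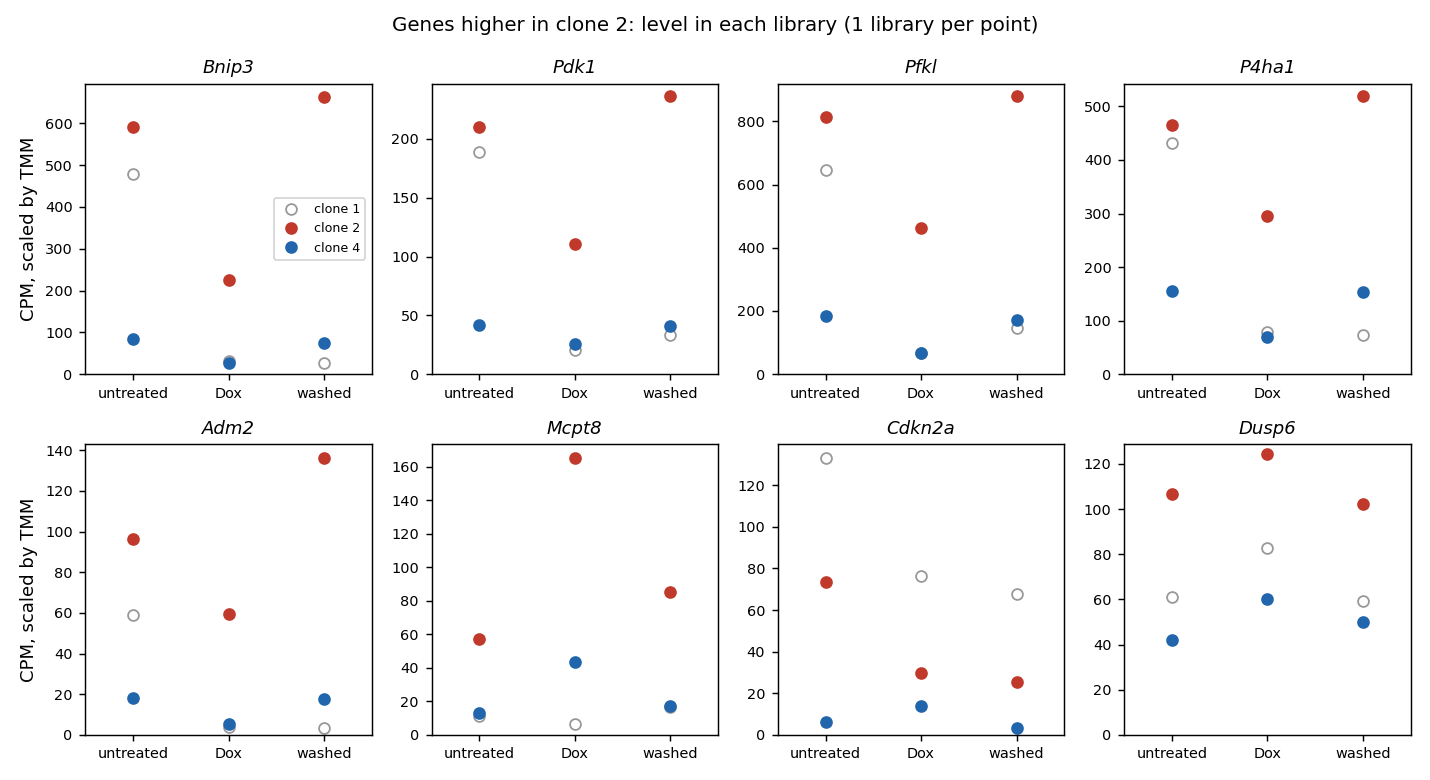
Level of 8 genes in CPM on a linear axis from 0, by culture condition, with 1 library per point (clone 2 red, clone 4 blue, clone 1 open grey). Clone 2 lies above clone 4 in every condition, and for Bnip3, Pdk1, Pfkl and P4ha1 clone 1 is near clone 2 when untreated and near clone 4 otherwise.

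Genes of no shared pathway included the largest called difference among genes with a symbol, a mean of at least 8 CPM and 1 direction in all 3 conditions. Smtnl2, a smoothelin-like protein, had 23.3, 13.3 and 27.3 CPM in clone 2 and 1.98, 1.55 and 3.42 CPM in clone 4 (9.15-fold, log2 fold change -3.19 ± 0.22 SE, adjusted p = 0.000116). Rgs11, a regulator of G protein signalling, had 15.0, 16.0 and 18.5 CPM against 1.85, 0.679 and 3.67 CPM, and Gimap1, a GTPase of the immunity-associated family, 17.5, 11.9 and 23.2 CPM against 1.36, 0.775 and 5.26 CPM (adjusted p = 0.000847 and 0.000832). Every clone 2 library was above every clone 4 library in each of these genes. Plxnb2, the semaphorin receptor plexin B2, differed in the GFPhigh conditions, at 50.6 and 68.9 CPM in clone 2 against 7.41 and 11.5 CPM in clone 4, and was near 0 in Dox in both (0.660 and 0.291 CPM).

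Inhibitors of the cell cycle were another group on the side of clone 2, with 14 of 22 tested members higher there (63.6%, against 12.7% of all tested genes) and 1, Rbl1, higher in clone 4. Cdkn2a, which encodes the p16 and p19ARF brakes, stood at 73.4, 29.8 and 25.2 CPM in clone 2 and 6.18, 13.8 and 3.06 CPM in clone 4 (5.47-fold, log2 fold change -2.45 ± 0.40 SE, adjusted p = 0.00381). Its neighbour Cdkn2b, for p15, stood at 28.3, 49.8 and 35.7 CPM against 11.1, 19.7 and 11.7 CPM (adjusted p = 0.000505). The clones did not overlap in either gene. Clone 1 went with neither pattern: it had more Cdkn2a than both in every condition (133, 76.6 and 67.7 CPM) but in Dox and washed cells less Cdkn2b than both (1.32 and 1.85 CPM). Gadd45g, a growth arrest gene, stood at 16.2, 12.7 and 24.6 CPM against 4.82, 2.81 and 7.46 CPM (adjusted p = 0.000742). Btg1, an antiproliferative factor, stood at 228, 270 and 254 CPM against 135, 118 and 145 CPM (adjusted p = 0.00127).

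Genes that cells switch on within minutes of growth factor or stress signals were also higher in clone 2. Of the 24 tested immediate early and AP-1 genes, 16 were higher in clone 2 and 0 in clone 4 (against 12.7% and 12.6% of all tested genes), with a median log2 fold change of -0.83. Dusp6, the phosphatase induced by and acting on ERK, had 107, 124 and 102 CPM in clone 2 and 42.0, 60.1 and 50.1 CPM in clone 4 (log2 fold change -1.14 ± 0.11 SE, adjusted p = 0.00056). Jund, an AP-1 subunit, had 442, 482 and 528 CPM against 239, 198 and 274 CPM (adjusted p = 0.000801), and Csrnp1, a nuclear protein of the same early class, 170, 397 and 183 CPM against 59.7, 126 and 60.3 CPM (adjusted p = 0.000108). In the Ras and MAPK list 12 of 37 were higher in clone 2 (32.4%, against 12.7% of all tested genes) and 4 in clone 4 (10.8%, against 12.6%). The list's median was 0.037, with 19 genes above 0 and 18 below. Map2k1, the MEK1 kinase, had 230, 248 and 241 CPM against 83.8, 110 and 75.0 CPM (log2 fold change -1.44 ± 0.12 SE, adjusted p = 0.000263). Socs3, the feedback inhibitor of cytokine receptors, stood at 31.6, 53.5 and 26.7 CPM against 9.63, 15.6 and 10.9 CPM.

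Secreted factors followed the same side. Of 15 tested cytokines and chemokines, 7 were higher in clone 2 and 0 in clone 4 (46.7% and 0%, against 12.7% and 12.6% of all tested genes). Osm, the cytokine oncostatin M, stood at 262, 497 and 285 CPM in clone 2 and 94.7, 131 and 98.5 CPM in clone 4 (log2 fold change -1.64 ± 0.12 SE, adjusted p = 0.000152), and its chromosome 11 neighbour Lif, leukaemia inhibitory factor, at 17.6, 38.1 and 22.5 CPM against 8.65, 10.5 and 9.05 CPM (adjusted p = 0.00173). The kinases that carry cytokine signals, Jak2 and Jak3, were likewise higher in clone 2, at 138, 282 and 136 CPM against 76.6, 166 and 80.8 CPM for Jak2 and 128, 116 and 120 CPM against 63.6, 52.1 and 67.4 CPM for Jak3 (adjusted p = 0.0012 and 0.000784). Il3ra, the receptor chain for the IL3 in the medium, stood at 118, 165 and 132 CPM against 81.9, 97.6 and 83.5 CPM (log2 fold change -0.65 ± 0.10 SE, adjusted p = 0.00319). Of the 31 tested cytokine receptor genes 5 were higher in clone 2 and 3 in clone 4, Tgfbr1 and Tnfrsf1a among the latter, with a median log2 fold change of 0.024.

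Mast cell and basophil genes were expressed in both clones at different levels. Of 13 tested, 8 were higher in clone 2 and 0 in clone 4, against 12.7% and 12.6% of all tested genes. Mcpt8, the granule protease of basophils, had 57.4, 165 and 85.4 CPM in clone 2 and 13, 43.6 and 17.5 CPM in clone 4 (log2 fold change -2.11 ± 0.12 SE, adjusted p = 0.000108), and every clone 2 library was above every clone 4 library. Il13, a type 2 cytokine, had 50.9, 12.9 and 47.1 CPM against 18.2, 4.36 and 14.9 CPM (adjusted p = 0.00034), with the Dox library of clone 2 below the GFPhigh libraries of clone 4. Tph1, the serotonin synthesis enzyme of mast cells, had 72.0, 0.264 and 89.9 CPM against 34.1, 0.0969 and 30.3 CPM (adjusted p = 0.00122), so that its clone difference rested on the GFPhigh libraries. Clone 1 had each of its Mcpt8 levels below those of clone 4 in the same condition (11.4, 6.62 and 16.4 CPM). The summed level of the 13 genes ran from 2772 to 3948 CPM in clone 2 and from 1452 to 3110 CPM in clone 4, and Fcer1a, Mcpt1 and Mcpt4 had 0 counts in both clones. The count of 8 was 3 without the untreated pair, 3 without the washed pair and 5 among genes of at least 5 CPM in 3 libraries.

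Ribosome biogenesis, a list of 91 genes added after the values were seen, was the group with the highest share of genes higher in clone 4. Of the 91, 72 were higher in clone 4 and 0 in clone 2 (against 12.6% and 12.7% of all tested genes), with a median log2 fold change of 0.73. Utp20 (chromosome 10, 88746607 to 88826814), a large scaffold of the small subunit processome, had 94.2, 66.0 and 93.7 CPM in untreated, Dox and washed clone 4 and 29.6, 20.3 and 25.3 CPM in clone 2 (3.37-fold, log2 fold change 1.75 ± 0.12 SE, adjusted p = 0.000113). Heatr1, another processome subunit, had 77.9, 77.2 and 87.1 CPM against 28.3, 29.2 and 28.1 CPM (adjusted p = 0.000201). The clones did not overlap in either gene, and Heatr1 was nearly level over the conditions within each clone.

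Rrp12, which takes part in the export of both subunits, had 73.5, 70.3 and 87.2 CPM in clone 4 and 23.9, 22.7 and 21.7 CPM in clone 2 (adjusted p = 0.000163). Mdn1, the giant ATPase that strips assembly factors from the large subunit, had 118, 64.6 and 137 CPM against 36.9, 23.4 and 31.8 CPM (log2 fold change 1.75 ± 0.14 SE, adjusted p = 0.000237). Other single genes included enzymes that modify RNA: Pus7, a pseudouridine synthase, had 91.3, 43.6 and 88.3 CPM against 37.3, 10.4 and 33.9 CPM, and Trmt61a, a tRNA methyltransferase subunit, 14.6, 13.9 and 18.6 CPM against 6.67, 3.04 and 7.95 CPM (adjusted p = 0.000654 and 0.00396). Pprc1, a coactivator for genes of mitochondrial biogenesis, had 77.2, 58.6 and 90.2 CPM against 27.4, 23.1 and 24.2 CPM (adjusted p = 0.000313). The list's count of 72 was 47 without the untreated pair and 44 without the washed pair. Clone 1 had 50.3, 58.7 and 189 CPM of Utp20 and 53.4, 56.2 and 139 CPM of Heatr1, with the washed library above all others of the series. Of the 72, 36 were nearer to clone 4 in every library of clone 1 and 25 nearer to clone 2 only in the untreated one. Among the 230 called genes of 1 direction at least 2-fold higher in clone 4, these counts were 111 and 42. The first count is thus no trait of this list. The genes for the proteins of the cytoplasmic ribosome were not higher in clone 4. Of 38 tested, 0 were higher in clone 4 and 9 higher in clone 2 (0% and 23.7%, against 12.6% and 12.7% of all tested genes), with a median log2 fold change of -0.29. With scaling by library size alone that count was 0 in both directions.

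**Figure D3:**
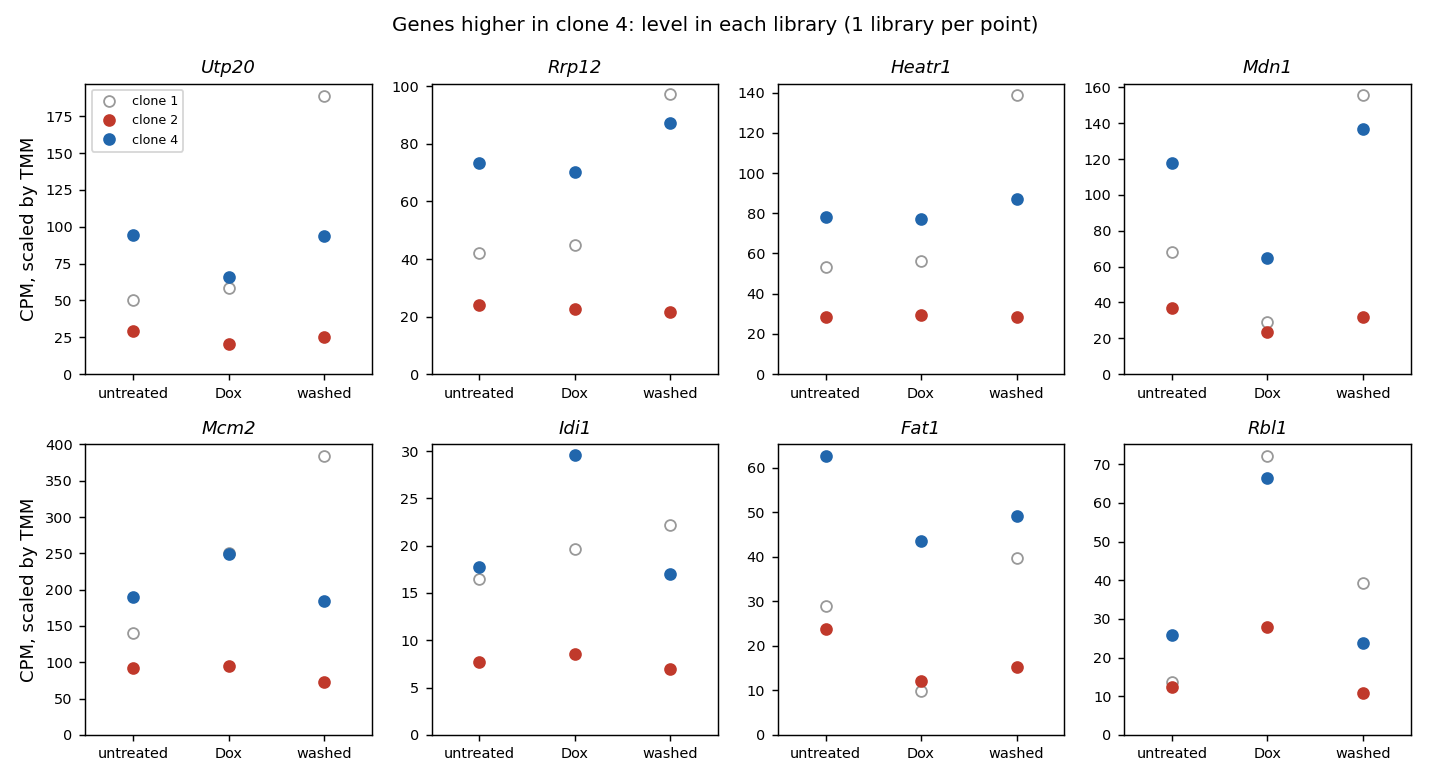
Level of 8 genes in CPM on a linear axis from 0, by culture condition, with 1 library per point (clone 2 red, clone 4 blue, clone 1 open grey). Clone 4 lies above clone 2 in every condition, and for Utp20, Rrp12, Heatr1 and Mcm2 the washed library of clone 1 is the highest of the 9.

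Of the replication and cell cycle genes, 16 of 41 tested were higher in clone 4 and 1, Ccnd3 (cyclin D3), higher in clone 2. These are 39% and 2.44%, against 12.6% and 12.7% of all tested genes, and the list had a median log2 fold change of 0.33. Mcm2, a subunit of the replicative helicase, had 190, 250 and 185 CPM in clone 4 and 92.3, 94.8 and 73.2 CPM in clone 2 (log2 fold change 1.26 ± 0.11 SE, adjusted p = 0.000313). Its partner Mcm4 had 101, 125 and 94.5 CPM against 56.0, 51.1 and 50.4 CPM, and Cdc25a, the phosphatase that frees CDK2, 66.5, 84.2 and 67.6 CPM against 37.8, 36.3 and 34.6 CPM (adjusted p = 0.00108 and 0.00122). None of these overlapped between the clones. The list's median difference was 0.14 in the untreated, 0.74 in the Dox and 0.25 in the washed pair. Among 53 chromatin regulators 7 were higher in clone 4 and 5 in clone 2 (13.2% and 9.43%), near the share over all tested genes. Hells, a helicase needed for DNA methylation, had 38.3, 48.4 and 35.8 CPM against 19, 15.4 and 12.7 CPM, and the maintenance methyltransferase Dnmt1 264, 387 and 254 CPM against 177, 227 and 155 CPM (adjusted p = 0.000896 and 0.00235), while the histone deacetylase Hdac5 and the demethylase Kdm6b were higher in clone 2 (log2 fold change -0.94 and -0.93, adjusted p = 0.00136 and 0.00143). The count of 16 was 9 without the untreated pair.

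Sterol and fatty acid synthesis was another group on the side of clone 4. Of 31 tested genes 16 were higher in clone 4 and 1 in clone 2 (51.6% and 3.23%, against 12.6% and 12.7% of all tested genes). The median log2 fold change was 0.41. Hsd17b7, a reductase of the cholesterol pathway, had 54.4, 132 and 52.0 CPM in clone 4 and 20.1, 55.0 and 19.3 CPM in clone 2 (log2 fold change 1.37 ± 0.12 SE, adjusted p = 0.00029). Idi1, the isopentenyl diphosphate isomerase, had 17.8, 29.6 and 17.0 CPM against 7.68, 8.58 and 6.97 CPM (adjusted p = 0.00148), and Elovl6, a fatty acid elongase, 95.5, 66.1 and 98.2 CPM against 62.7, 30.5 and 55.7 CPM (adjusted p = 0.00275). The clones overlapped across conditions for Hsd17b7, whose Dox library in clone 2 was above the GFPhigh libraries of clone 4, and not for Idi1 or Elovl6. Of the 16, 4 were called without the untreated pair and 8 without the washed pair.

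**Figure D4:**
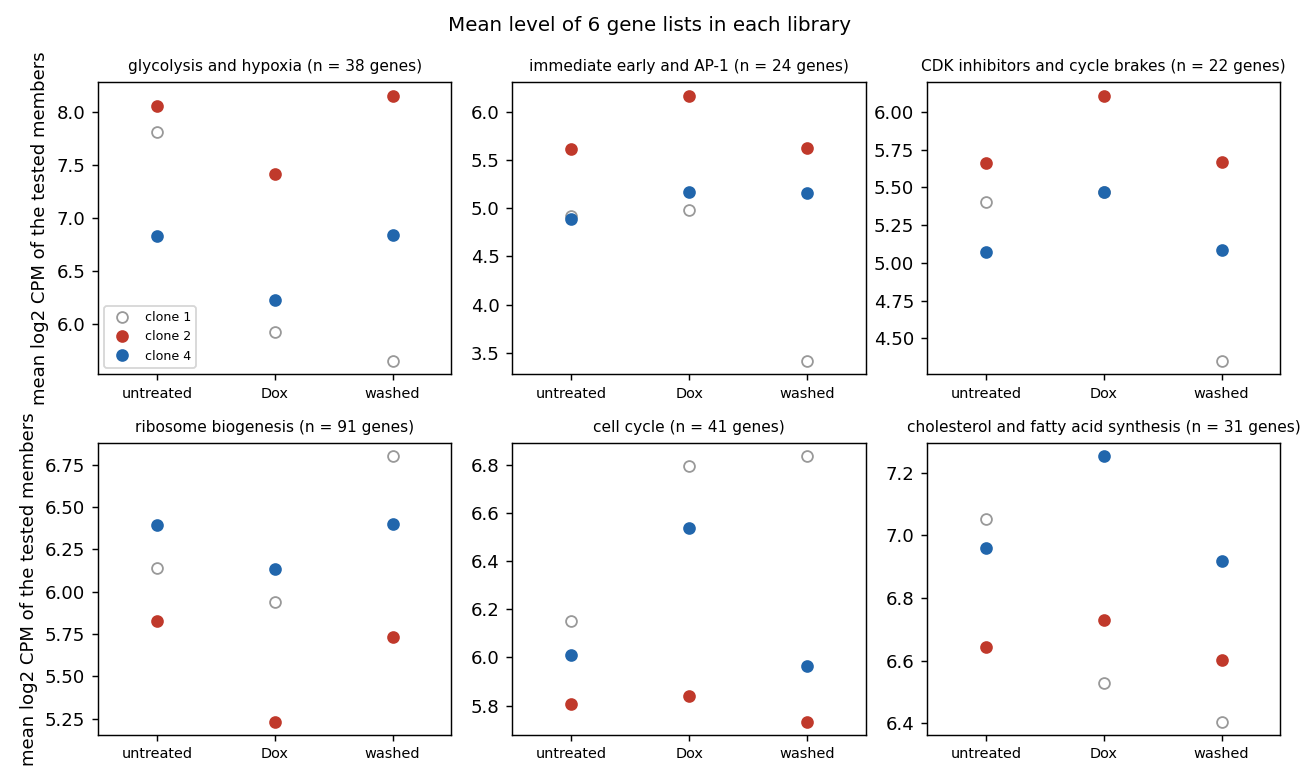
Mean log2 CPM of the tested members of 6 gene lists (y axis, not starting at 0) by culture condition, with 1 library per point. Clone 2 is above clone 4 in all 3 conditions for the 3 lists of the upper row and below it for those of the lower row, and clone 1 runs from 5.65 (washed) to 7.81 (untreated) on the glycolysis and hypoxia list.

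Single genes outside those groups, Fat1, Vcan, Aen and Cgas, were among the 14 largest called differences in favour of clone 4. That ranking covers genes with a mean of at least 8 CPM and 1 direction in all 3 conditions, and larger differences lay outside it. Fat1, an atypical cadherin, had 62.6, 43.5 and 49.2 CPM in clone 4 and 23.8, 12 and 15.3 CPM in clone 2 (3.10-fold, adjusted p = 0.000302). Vcan, the matrix proteoglycan versican, had 16.9, 21.1 and 20.9 CPM against 5.29, 9.90 and 6.12 CPM (adjusted p = 0.00165). Aen, a nuclease known as a target of p53, had 39.8, 27.8 and 43.2 CPM against 14.2, 9.37 and 12.1 CPM in these p53-/- cells (adjusted p = 0.000334). Of the 21 tested p53 targets 6 were higher in clone 2 and 2 in clone 4 (28.6% and 9.52%, against 12.7% and 12.6% of all tested genes). Cxcr4, the receptor for the bone marrow chemokine CXCL12, had 112, 140 and 126 CPM against 57.1, 46.7 and 41.9 CPM (log2 fold change 1.38 ± 0.14 SE, adjusted p = 0.000654). Each of these had its lowest clone 4 library above its highest clone 2 library. Cgas, the sensor of cytosolic DNA, had 10.6, 39.8 and 12.6 CPM against 4.91, 14.5 and 3.43 CPM (adjusted p = 0.00166), and its Dox library was the highest in both clones.

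Myeloid differentiation genes were called at shares near those over all tested genes (12.6% higher in clone 4, 12.7% in clone 2) or on few genes. Of 12 tested primary granule genes, 1 was higher in each clone: Cst7, a cystatin, in clone 2 and Serpinb1a, an elastase inhibitor, in clone 4 (lost without the washed pair, adjusted p = 0.16). Of 17 secondary and tertiary granule genes, 1 was higher in clone 4 and 2 in clone 2, and of 17 calprotectin and mature neutrophil genes 3 and 3. Of 11 monocyte and macrophage genes 3 were higher in clone 2 and 1 in clone 4, with a median log2 fold change of -0.34. Other lists leaned towards clone 2 on few genes, with 0 higher in clone 4. They were NADPH oxidase (3 of 8), eosinophil (3 of 11) and megakaryocyte and platelet genes (4 of 10). With scaling by library size alone these counts were 0, 3 and 2. Stfa1, a stefin, had 11.2, 107 and 13.1 CPM in clone 4 and 4.78, 68.2 and 2.94 CPM in clone 2, whereas Pglyrp1, a peptidoglycan recognition protein, had 87.1, 621 and 86.4 CPM against 144, 957 and 150 CPM (adjusted p = 0.0101 and 0.0022). The Stfa1 call was lost without the untreated pair (adjusted p = 0.0556). Among transcription factors of blood cells, Myb was higher in clone 4, at 371, 406 and 364 CPM against 241, 249 and 217 CPM (log2 fold change 0.69 ± 0.10 SE, adjusted p = 0.00218), and Id2, an inhibitor of helix-loop-helix factors, higher in clone 2, at 184, 168 and 212 CPM against 119, 99.5 and 124 CPM (adjusted p = 0.00175). The ETS factors called beside Spi1 were Elf1 and Fli1, both higher in clone 4, and both calls were lost without the untreated pair (adjusted p = 0.148 and 0.09) and without the washed pair (adjusted p = 0.0892 and 0.108). Il1rn, the antagonist of interleukin 1, had 14.2, 41.3 and 11.9 CPM in clone 4 and 6.42, 13.7 and 6.97 CPM in clone 2 (adjusted p = 0.00395).

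Surface and matrix contact genes leaned towards clone 2. Of 17 tested integrin chains 6 were higher in clone 2 and 1 in clone 4, and of 19 cadherins and other adhesion genes 8 and 1 (35.3% and 42.1% higher in clone 2, against 12.7% of all tested genes). Itgb7, an integrin chain of gut homing, had 1177, 973 and 1379 CPM in clone 2 and 826, 562 and 768 CPM in clone 4 (adjusted p = 0.00459), a call lost without the washed pair (adjusted p = 0.0649). Nectin2, an adhesion receptor, had 67.2, 74.8 and 76.1 CPM against 34.2, 43.5 and 38.9 CPM (adjusted p = 0.00129). F2r, the thrombin receptor, had 58.2, 79.3 and 56.4 CPM against 23.7, 36.3 and 29.4 CPM (adjusted p = 0.00079). H2-Ab1, a chain of MHC class II, was the 1 called gene of 7 in its list, at 178, 115 and 185 CPM against 101, 55.6 and 103 CPM (log2 fold change -0.90 ± 0.10 SE, adjusted p = 0.000847). Of 9 stroma, endothelium and epithelium markers 4 were tested and 2, Epcam and Krt18, were higher in clone 2. Epcam, an epithelial adhesion molecule, had 4.41, 72.6 and 4.28 CPM against 1.98, 31.1 and 2.81 CPM (adjusted p = 0.00547), a call lost without the Dox pair (adjusted p = 0.0574). The Krt18 call was lost without the untreated pair (adjusted p = 0.198), without the washed pair (0.106), with length and GC offsets (0.0708) and with library size alone (0.0763). The summed level of the 4 ran from 937 to 1037 CPM in clone 2 and from 930 to 981 CPM in clone 4, nearly all of it Pecam1 and Pdgfrb, and Cdh5 and Col1a2 were at 0; their part in the results was not tested. Of 32 lysosomal genes 12 were higher in clone 2 and 1 in clone 4, with 2 and 1 under scaling by library size alone.

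Imprinted and histone genes also counted more members on the side of clone 2. Of 28 tested imprinted genes 11 were higher in clone 2 and 2 in clone 4 (39.3% and 7.14%, against 12.7% and 12.6% of all tested genes), and 6 and 3 with library size alone. H19, a noncoding RNA expressed from the maternal allele, had 14.2, 0 and 18.1 CPM in clone 2 and 3.46, 0 and 5.26 CPM in clone 4 (log2 fold change -1.89 ± 0.29 SE, adjusted p = 0.00382), so that its difference rested on the GFPhigh libraries, and the call was lost without the untreated pair (adjusted p = 0.0581) and without the washed pair (adjusted p = 0.064). Peg13, a noncoding RNA within Trappc9, had 25.3, 41.7 and 22.6 CPM against 13.1, 16.3 and 15.2 CPM (adjusted p = 0.00551). Of 18 tested histone genes, a list that holds the replacement linker histone H1f0 beside replication-dependent ones, 7 were higher in clone 2 and 0 in clone 4, with a median log2 fold change of -0.91. Of the 4 tested lymphocyte genes, 2 were higher in clone 2. Cd79b, at low levels, had 3.65, 5.54 and 3.79 CPM against 0.494, 0.776 and 1.345 CPM (log2 fold change -2.32 ± 0.41 SE, adjusted p = 0.00514). Cd3g, a chain of the T cell receptor complex, had 163, 38.3 and 210 CPM against 128, 20.2 and 141 CPM (adjusted p = 0.0096), a call lost without the washed pair (adjusted p = 0.0741). Of the 22 listed, 11, Cd3e among them, had 0 counts. Interferon response genes, with 2 of 27 higher in each clone, and the BCL2 family and caspases, with 3 of 32 higher in clone 2 and 1 in clone 4, were near or below the share over all tested genes.

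**Figure D5:**
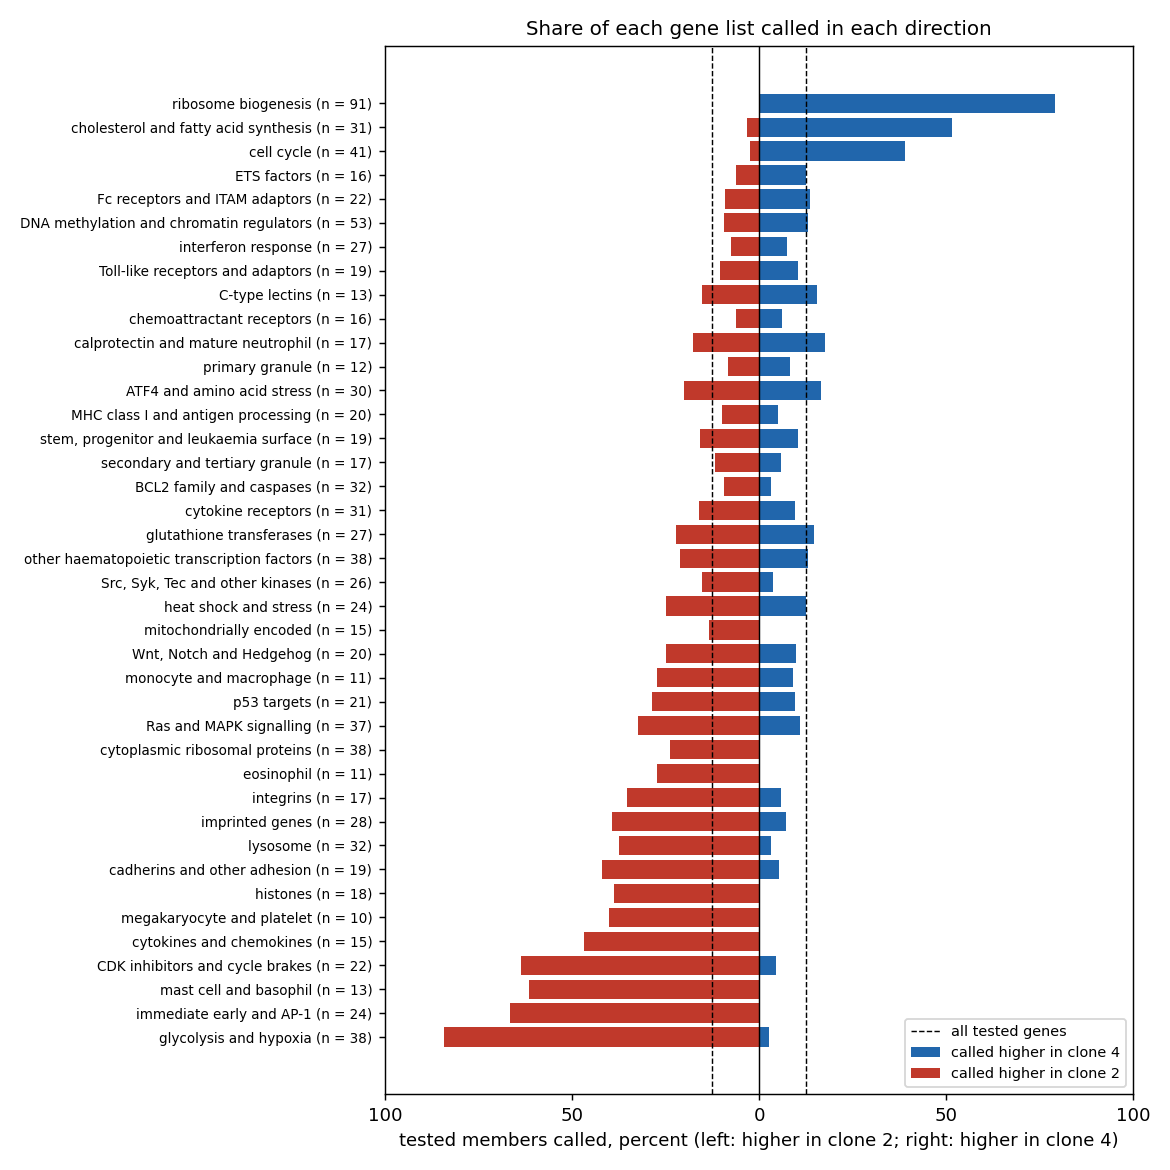
Share of the tested members of each list that were called, in percent, to the left for genes higher in clone 2 and to the right for genes higher in clone 4, for lists of at least 10 tested genes, with dashed lines at the shares over all tested genes (12.7% and 12.6%). The glycolysis and hypoxia list reaches farthest to the left at 84.2% and ribosome biogenesis farthest to the right at 79.1%.

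Position along the chromosomes was described without a test. Median log2 fold changes per nuclear chromosome ran from -0.10 on chromosome 7 to 0.15 on chromosome 3, and with scaling by library size alone these were 0.011 and 0.25. Windows of 25 neighbouring tested genes with a median of at least 0.5 in either direction and 1 direction in all 3 pairs merged into 5 stretches, picked from these data. On chromosome 3, from Stxbp3 to Rwdd3 (108793180 to 121171781), 9 of 26 genes were higher in clone 4 and 1 in clone 2, with a median of 0.51. On chromosome 13, from Zfp369 to Ice1 (65277228 to 70637839), 9 of 33 were higher in clone 4 and 0 in clone 2. The 3 stretches on the other side lay on chromosome 7 from Leng1 to Isoc2b (3660107 to 4866179, 7 of 30 higher in clone 2 and 2 in clone 4), chromosome 10 from Gm9923 to Pcnt (72309201 to 76442912, 11 of 27 and 1) and chromosome 13 from Pgbd1 to Mrs2 (21421275 to 25020363, 7 of 43 and 3), against 12.7% and 12.6% of all tested genes. Medians over these 3 merged stretches were -0.49, -0.47 and -0.44, short of the cut that their single windows met. In the untreated pair they were -0.15, -0.46 and -0.17. The chromosome 10 stretch holds the glutathione transferase genes Gstt1, Gstt2 and Gstt3, all higher in clone 2 (without the washed pair adjusted p = 0.0537 for Gstt2 and 0.0579 for Gstt3, and without the untreated pair 0.0801 for Gstt3), and the last one the histone cluster with H1f2, a linker histone, which had 112, 39.5 and 78.9 CPM in clone 2 and 46.3, 9.31 and 44.3 CPM in clone 4 (log2 fold change -1.34 ± 0.20 SE, adjusted p = 0.00276).

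The clone difference also moved with 2 properties of the transcripts. With genes in 10 equal bins of length, the median log2 fold change went from -0.20 in the shortest to 0.094 in the longest. In 10 bins of GC content, known for 93.7% of tested genes, it went from 0.17 in the lowest to -0.23 in the highest. The GC trend had the same sign in the untreated (0.13 to -0.14), Dox (0.21 to -0.36) and washed pairs (0.19 to -0.20). With offsets for length and GC fitted to each library, 3033 genes were called, 1353 higher in clone 4 and 1680 in clone 2, 2375 of them among the 3067, and 5 of the 3067 had the opposite direction. The oxygen and ribosome biogenesis lists kept their side: 34 of 38 oxygen and glycolysis genes were then higher in clone 2 and 68 of 91 ribosome biogenesis genes higher in clone 4. Not every list did. Of the 53 chromatin regulators, 6 were then higher in clone 4 and 8 in clone 2, against 7 and 5 in the main fit. The median of the secondary and tertiary granule list moved from -0.12 to 0.067. Promoter features of the called genes as a group are void, because only 78.2% of the genes higher in clone 2 and 77.9% of all tested genes had a window in the promoter table.

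The last comparison set the clone difference in Dox beside that in the GFPhigh libraries. In a model with clone, state (Dox as GFPoff, untreated and washed as GFPhigh) and their interaction, 1205 of 12582 genes (9.58%) were called by the quasi-likelihood test of edgeR, 593 with a clone 4 minus clone 2 difference that was higher in Dox and 612 lower. The spread here came from the gap between untreated and washed libraries, shared in large part over genes. Each clone had 1 Dox library, so that a change with the hairpin state and a feature of the single Dox cultures cannot be told apart. Leaving out 1 GFPhigh library gave 2184 genes (without untreated clone 2), 2163 (washed clone 2), 612 (untreated clone 4) and 440 (washed clone 4). With clone 1 in the model, edgeR, DESeq2 and limma voom each called 0 of 12767 genes (377, 156 and 380 at an unadjusted p under 0.05), and with library size alone 2671 were called, of which 89.3% were higher in Dox. Of the 8 genes of smallest p whose difference was lower in Dox, 6 are encoded in the mitochondrial genome. CYTB, the cytochrome b of complex III, had 13460, 39510 and 13500 CPM in clone 2 and 25180, 14030 and 26720 CPM in clone 4, so that clone 4 was higher in the GFPhigh pairs and lower in Dox. Mitochondrial genes took 18.6% of counts in Dox clone 2 and 7.52% in Dox clone 4, against 15.8% to 22% in the 4 GFPhigh libraries. All 15 tested mitochondrial genes had a difference that was lower in Dox. Among them the ribosomal RNA mt-Rnr2 had 14310, 5723 and 14560 CPM in clone 2 and 6561, 1456 and 6790 CPM in clone 4, higher in clone 2 in every condition (log2 fold change -1.40 ± 0.23 SE, adjusted p = 0.0041), with an interaction of -0.86 (adjusted p = 0.000201).

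Of the 38 oxygen and glycolysis genes, 7 had a difference that was higher in Dox, towards clone 4, and 3 one that was lower, against 9.58% of all tested genes called in either direction. Pfkl was among the latter: its clone difference was -2.15 in the untreated, -2.80 in the Dox and -2.35 in the washed pair (interaction -0.55 ± 0.15 SE, adjusted p = 0.0169). Ndrg1, a stress gene known to respond to low oxygen, had 270, 89.4 and 320 CPM in clone 2 and 57.4, 45.8 and 55.3 CPM in clone 4, and its difference was 1.43 ± 0.17 SE higher in Dox on the log2 scale (adjusted p = 4.9e-07). Slc2a3, the glucose transporter GLUT3, had 340, 511 and 389 CPM against 87.6, 269 and 71.8 CPM, a shift of 1.27 ± 0.16 SE (adjusted p = 1.04e-06). Both stayed higher in clone 2 in every condition. Ngp, a neutrophil granule protein, had 9.19, 32.7 and 17.5 CPM in clone 2 and 5.43, 173 and 8.32 CPM in clone 4, so that clone 2 was higher in the GFPhigh pairs and clone 4 in Dox, with a shift of 3.36 ± 0.30 SE (adjusted p = 8.44e-10). Bnip3 showed no such shift at this precision (-0.064 ± 0.17 SE, adjusted p = 0.869).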

How the data were processed

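RNA-seq of 9 cultures was deposited, and 6 libraries were compared. Per the submitters' processing notes the build was mm10 (GRCm38), and the tools were limma 3.22.0, edgeR 3.8.2, featureCounts and CASAVA 1.8.2. Which aligner, annotation and strand setting were used is not given in the sources used here, so overlapping antisense genes and near-identical copies such as histones may share reads. The values deposited by the authors are whole-number counts per Entrez gene, not normalized.

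Symbols and coordinates came from RefSeq for GRCm38.p6 by Entrez ID (25275 of 27179 entries matched; the other 1904 stayed in the tests and are not named). Counts were filtered with filterByExpr, scaled by TMM and fitted with edgeR 4.0.16 in R 4.3.3 by its quasi-likelihood test with culture condition and clone as terms (2 residual degrees of freedom). P-values were adjusted by Benjamini-Hochberg over all tested genes, with a threshold of 0.05. Each SE is the fitted difference over the root of its F statistic. A prior count of 2 entered log2 CPM. Values of clone 1 were scaled over 9 libraries; in its untreated library 22% of counts lay on 1 entry without a symbol. Culture labels pair the libraries, and deviations from the clone means correlated at 0.643 (untreated), 0.819 (Dox) and 0.650 (washed) between the clones. The Dox effect enters all 3 deviations of a clone, so these values cannot tell the untreated from the washed label. No libraries were duplicates, since the most alike (clone 4, untreated and washed) differed by a chi-square of 3.47 a degree of freedom. P-values measure how the clone difference spread over 3 cultures, and not a spread between repeat cultures. Each gene's spread was in large part shared over genes, with 7.05 prior beside 2 residual degrees of freedom. For the interaction these were 30.5 and 2.

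The samples and 48 gene lists were chosen with earlier results of these data known, and 1 more list (ribosome biogenesis) after its values were seen; 1458 of 1471 names matched. Named genes are Spi1, Trp53, the 14 largest called differences per direction among genes with a mean of at least 8 CPM and 1 direction in all 3 conditions, the 8 of smallest p, genes under 0.5 CPM in 1 clone and at least 5 CPM in the other (none), up to 4 called genes per list (or the 1 of smallest p) and up to 8 per direction for the interaction. Cell type markers had their own list. Pfkfb3, Ccnd3, Gstt1, Fcer1a, Mcpt1, Mcpt4, the Y-linked genes and the ends of the stretches were picked after their values were seen. The fits were tested on simulated counts: for the clone difference most changes of 2-fold were recovered and the share of false calls was above the nominal one, and for the interaction most 2-fold changes were missed. Alternatives were other scalings and filters, DESeq2 1.42.0, limma 3.58.1 (voom), glmTreat against a fold of 1.5, no block, 9 libraries, and each condition left out. Offsets for length and GC (GENCODE transcripts), 8 libraries, DESeq2 and voom for the fits with 9 libraries or no block, fits without mitochondrial genes, and each GFPhigh library left out of the interaction were added after the data were seen.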

Additional observations from a re-analysis of the deposited data

Results flagged for a closer look

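The test of the interaction between clone and hairpin state called 1205 genes with edgeR's quasi-likelihood test. Each clone had 1 Dox library, so the test holds no spread between Dox cultures, and with clone 1 added edgeR, DESeq2 and limma voom called 0. On the log2 scale the clone 4 minus clone 2 difference was lower in Dox by the interaction values of -3.15 for Rpph1 (RNase P RNA), -2.94 for ND4L, -2.83 for Lars2 (mitochondrial leucyl-tRNA synthetase), -2.57 for ATP8, -2.44 for ND4, -2.43 for CYTB, -2.32 for ND3 and -2.28 for ATP6. It was higher in Dox by 3.36 for Ngp, 1.96 for Lipg (endothelial lipase), 1.77 for Impa2 (inositol monophosphatase 2), 1.47 for Cyp1a1 (a cytochrome P450), 1.43 for Ndrg1, 1.35 for Mthfd1l (a mitochondrial folate enzyme), 1.28 for Gtf2e2 (a subunit of TFIIE) and 1.27 for Slc2a3. Mitochondrial counts were 18.6% of Dox clone 2 and 7.52% of Dox clone 4. Rpph1 and Lars2 were highest in untreated clone 1 (246.5 and 35510 CPM), in which 1 entry without a symbol took 22% of counts. That entry took 1.64% of counts in Dox clone 2 and 0.356% in Dox clone 4. Whether the values of Rpph1 and Lars2 follow that entry was not tested. With mitochondrial genes and unnamed entries left out, 1186 genes were called.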

How the results depend on the processing

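The number of genes that differed between the clones was 3067 (1528 higher in clone 4, 1539 in clone 2). It was 304 (95 and 209) with glmTreat against a fold of 1.5. DESeq2 called 1008 higher in clone 4, and scaling by library size alone 889 higher in clone 2. Without the replicate block (clone alone in the model) edgeR and limma voom called 0 and DESeq2 972 (455 and 517). With all 9 libraries edgeR and limma voom called 0 and DESeq2 742 (368 and 374), and with 8 libraries, without untreated clone 1, edgeR called 765 (400 and 365). Leaving out 1 condition at a time gave 804 to 4826 genes (365 to 2389 higher in clone 4, 439 to 2437 higher in clone 2). In fits without the block and with 9 libraries, edgeR and limma voom called 0 members of each of 7 lists: glycolysis and hypoxia, ribosome biogenesis, cell cycle, cholesterol and fatty acid synthesis, immediate early, CDK inhibitors, and mast cell.

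Members called in those lists were as follows in the other fits that moved them by over 1.5 times. Ribosome biogenesis (72) had 20 with glmTreat, 39 with 8 libraries, 39 with 9 libraries and DESeq2, 34 without the block in DESeq2, and 44 to 74 with 1 condition left out. Cell cycle (16) had 3, 9, 5 and 7 in the same order, and 9 to 16. Cholesterol and fatty acid synthesis (16) had 2, 7, 8 and 4, and 4 to 16. Immediate early genes (16) had 4, 3, 6 and 6, and 13 to 16. CDK inhibitors (14) had 3, 4, 4 and 6, and 9 to 14. Mast cell genes (8) had 3, 5, 2 and 2, 3 to 9, and 5 with at least 5 CPM in 3 libraries. Glycolysis and hypoxia (32) had 23 to 34 over all fits but those that called 0, and 27 to 34 with 1 condition left out.

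The hairpin state interaction (1205) had 2671 genes with library size alone, 325 without a filter, 333 with DESeq2 and 0 with 9 libraries by edgeR, DESeq2 and limma voom. Leaving out each of the 4 GFPhigh libraries in turn, added after the data were seen, gave 440 (without washed clone 4) to 2184 genes (without untreated clone 2), with the lone GFPhigh library of that clone assumed to vary like those of the other. The chromosome 7 median reversed to 0.011 with library size alone. No named gene reversed under any fit with a value for it. The fits with 9 libraries could hardly reverse one, since their clone difference came almost wholly from the libraries of the main fit. The cause of these shifts was not tested.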
